A study of Mus musculus with 21 samples.

Results

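The acetylcholine receptor genes described here were the muscarinic receptors *Chrm1* to *Chrm5* and the nicotinic subunits *Chrna3*, *Chrna4*, *Chrna7*, *Chrnb2* and *Chrnb4*, chosen by symbol. They are 10 of the 35266 genes in the count and TPM tables (TPM being read counts scaled to gene length and library depth), and all 10 were among the 16513 genes that passed a filter on low counts. Each of the 21 RNA-Seq libraries held fluorescent neurons sorted by hand from the hypothalamic arcuate nucleus of 1 male mouse on a C57BL/6J background. AGRP neurons came from NPY-hrGFP mice, 5 fed and 6 food-deprived (FD), and POMC neurons from Pomc-GFP mice, 5 fed and 5 FD. FD mice had only water for 24 hr and fed mice had food ad libitum, each alone in a fresh cage. Mice were 46 to 56 days old and libraries held 44 to 214 cells. The AGRP label therefore rests on a reporter driven by *Npy*, and each cell type was taken from a different mouse line, so line and cell type cannot be told apart.

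Acetylcholine acts on 2 receptor families. Muscarinic receptors are G-protein coupled: M1, M3 and M5 couple to Gq and phospholipase C, which raises intracellular calcium and closes M-current potassium channels, whereas M2 and M4 couple to Gi/o, which lowers cyclic AMP and opens GIRK potassium channels. Nicotinic receptors are pentameric cation channels. The α4 and β2 subunits form the most widespread high-affinity receptor of the brain, α7 forms calcium-permeable homomeric channels, and α3 with β4 forms the receptor typical of autonomic ganglia. AGRP neurons drive feeding and POMC neurons restrain it, and cholinergic agonists such as nicotine are known to lower food intake.

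Libraries held 9822298 to 37663979 gene counts (median 19189780). A floor of 3 reads lay between 0.0797 and 0.305 CPM (counts scaled to the depth of the library), and covers counting error only, since amplified reads without molecular identifiers are not independent molecules. Summed *Agrp* and *Npy* levels were 12064 to 68921 TPM in AGRP libraries and 5.45 to 226 TPM in POMC libraries, and summed *Pomc* and *Cartpt* levels were 8809 to 37160 TPM in POMC libraries and 114 to 227 TPM in AGRP libraries, so every library had the peptides of its label. The 21 markers of astrocytes, the oligodendrocyte lineage, microglia, endothelial cells and tanycytes summed to 27.7 to 69.4 TPM per library, of which *Mbp* alone gave 13.9 to 40.1 TPM. Not all of these 21 genes passed the count filter (2 of 4 for microglia, 0 of 2 for oligodendrocyte precursors), and the others could not be called. Among the 21 genes, 1 was called in any of the 5 comparisons, where 0.375 to 18.6% of all genes tested were called. It was *Aldh1l1*, an astrocyte enzyme, at 0 to 0.045 TPM in AGRP neurons from fed mice and 0.217 to 5.15 TPM in those from FD mice (log2 fold change 5.91, SE 1.77, adjusted p = 0.0284). The 4 astrocyte markers together were 1.67 to 7.51 TPM in the former and 0.468 to 14.1 TPM in the latter. Of 5 markers of other arcuate neurons 2 were tested, and *Th* was called between FD cell types, where 18.6% of all genes tested were called. *Th* had a log2 fold change of 3.73 (SE 1.02, adjusted p = 0.0088), at 1.34 to 29.8 TPM in AGRP and 0 to 2.15 TPM in POMC neurons. The 5 markers had summed levels of 1.74 to 37.3 and 0.305 to 22.9 TPM. The part of such cells in the receptor results was not tested. In pooled cells, fewer cells with a transcript and less transcript per cell cannot be told apart. By the labels 9 libraries received 1 µl of diluted ERCC spike-in mix, another 6 received 10 µl, and 6 had other volumes, in proportion to their cells. In the AGRP FD library of replicate 2 the 1 µl is also the volume in proportion to its 50 cells. It was placed with the cell-scaled libraries, a choice the labels do not settle, and the other placement was tried as well.

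All 10 receptor genes were detected, at levels that differed widely. *Chrnb2* (β2) had the highest mean TPM level in each group, from 46.8 ± 11.8 TPM in POMC neurons from fed mice (SD, n = 5) to 56.2 ± 12.5 TPM in AGRP neurons from fed mice (SD, n = 5). The second place in the order differed by cell type. It was taken by *Chrna4* (α4) in AGRP neurons and by *Chrna7* (α7) in POMC neurons, in fed and FD mice alike. Among muscarinic genes the highest mean TPM level was that of *Chrm3* (M3) in AGRP neurons and of *Chrm5* (M5) in POMC neurons, in both feeding states. In the order of mean levels, *Chrnb2* did not overlap its next neighbor in 3 of the 4 groups, the exception being *Chrna7* in POMC neurons from fed mice. *Chrna4* also did not overlap *Chrm3* in AGRP neurons from fed mice. All other neighbors in the order overlapped across libraries. Within each library, however, *Chrna7* was above *Chrm5* in all 5 fed and all 5 FD POMC libraries. *Chrm3* was likewise above *Chrm4* in all 6 AGRP libraries from FD mice, and *Chrm1* above *Chrna7* in all 5 from fed mice. The remaining neighbors did not keep their order in every library and are not ranked by these data.

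**Figure D1:**
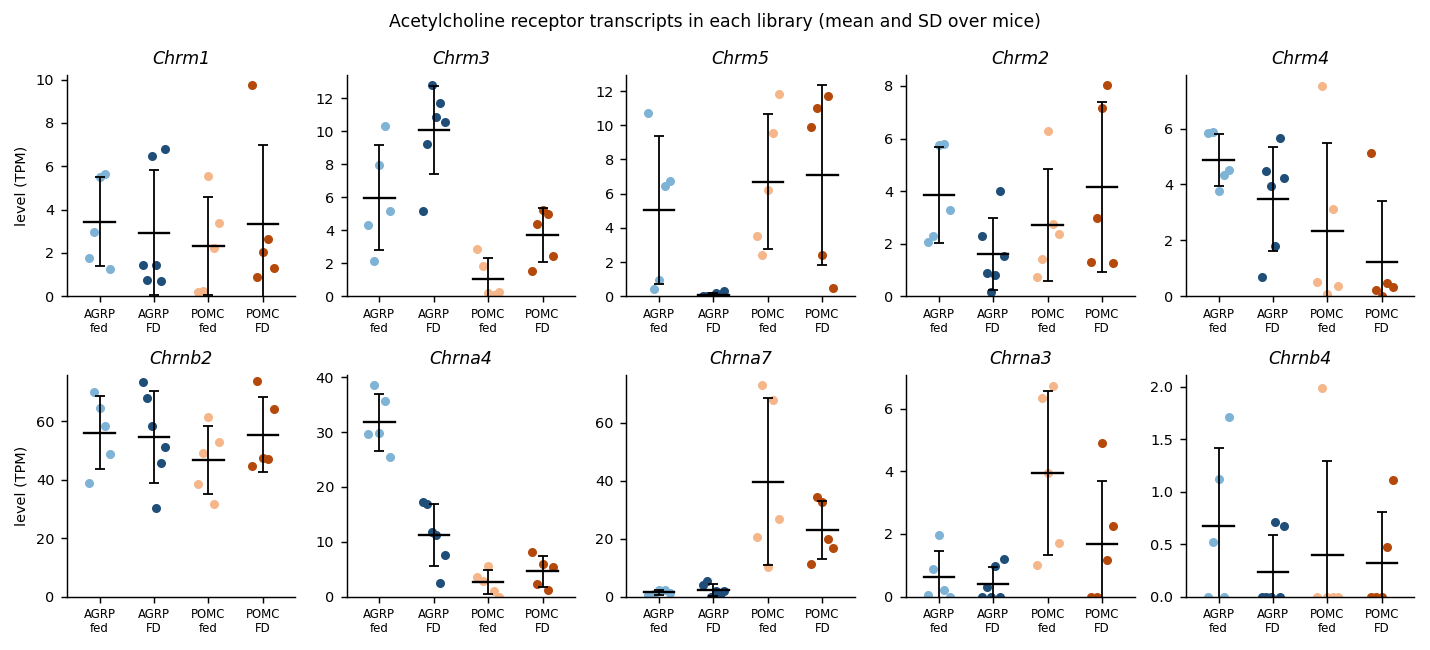
Level of each acetylcholine receptor gene (TPM, linear axes from 0) in each library, 1 point per mouse, with the group mean (horizontal line) and SD (bars, which stop at 0). *Chrm5* lies at 0 to 0.293 TPM in the 6 AGRP libraries from FD mice, *Chrna4* is highest in AGRP neurons from fed mice and *Chrna7* in POMC neurons, while *Chrnb2* spans like ranges in the 4 groups.

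Summed over the 5 muscarinic genes, levels were 23.2 ± 6.82 TPM in AGRP neurons from fed mice (SD, n = 5), 18.2 ± 5.69 TPM in AGRP neurons from FD mice (SD, n = 6), 15.1 ± 4.53 TPM in POMC neurons from fed mice (SD, n = 5) and 19.5 ± 9.06 TPM in POMC neurons from FD mice (SD, n = 5), and the ranges of the 4 groups overlapped. The makeup of that sum varied more than its size. *Chrm3* was 15.4 to 33.3% of the muscarinic TPM in AGRP neurons from fed mice (median 24.5%) and 45.3 to 72.1% in those from FD mice (median 54.5%), and the groups did not overlap. This share also depends on the other genes in the sum. The *Chrm3* level itself overlapped, at 2.12 to 10.3 TPM in fed and 5.18 to 12.8 TPM in FD mice. *Chrm5* was 3.28 to 43.3% of the muscarinic TPM in AGRP neurons from fed mice (median 19.8%) and 0 to 1.29% in those from FD mice (median 0%). In POMC neurons *Chrm5* held 18.1 to 64.9% in fed mice (median 44.9%) and 7.78 to 56.7% in FD mice (median 35.9%), and the ranges overlapped. The 3 Gq-coupled genes together made up 33.7 to 84.9% of the muscarinic TPM over all libraries.

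The 5 nicotinic genes summed to 90.7 ± 17.1 TPM in AGRP neurons from fed mice (SD, n = 5), 68.6 ± 20.9 TPM in AGRP neurons from FD mice (SD, n = 6), 93.3 ± 27.2 TPM in POMC neurons from fed mice (SD, n = 5) and 85.1 ± 18.5 TPM in POMC neurons from FD mice (SD, n = 5), again with overlapping ranges. *Chrnb2* was 56.2 to 64.7% of the nicotinic TPM in AGRP neurons from fed mice and 67.4 to 94.7% in those from FD mice. The level of *Chrna4*, as a percent of the *Chrnb2* level in the same library, was 46.2 to 76.5% in AGRP neurons from fed mice and 5.4 to 36.9% in AGRP neurons from FD mice. In POMC neurons this percent was 0 to 9.26 in fed mice and 2.53 to 18.2 in FD mice. AGRP neurons from fed mice thus had the highest transcript ratio of α4 to β2, with no overlap with any other group. The ratio itself was not tested, and *Chrna4* was not called between fed and FD AGRP neurons (adjusted p = 0.219, edgeR).

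**Figure D2:**
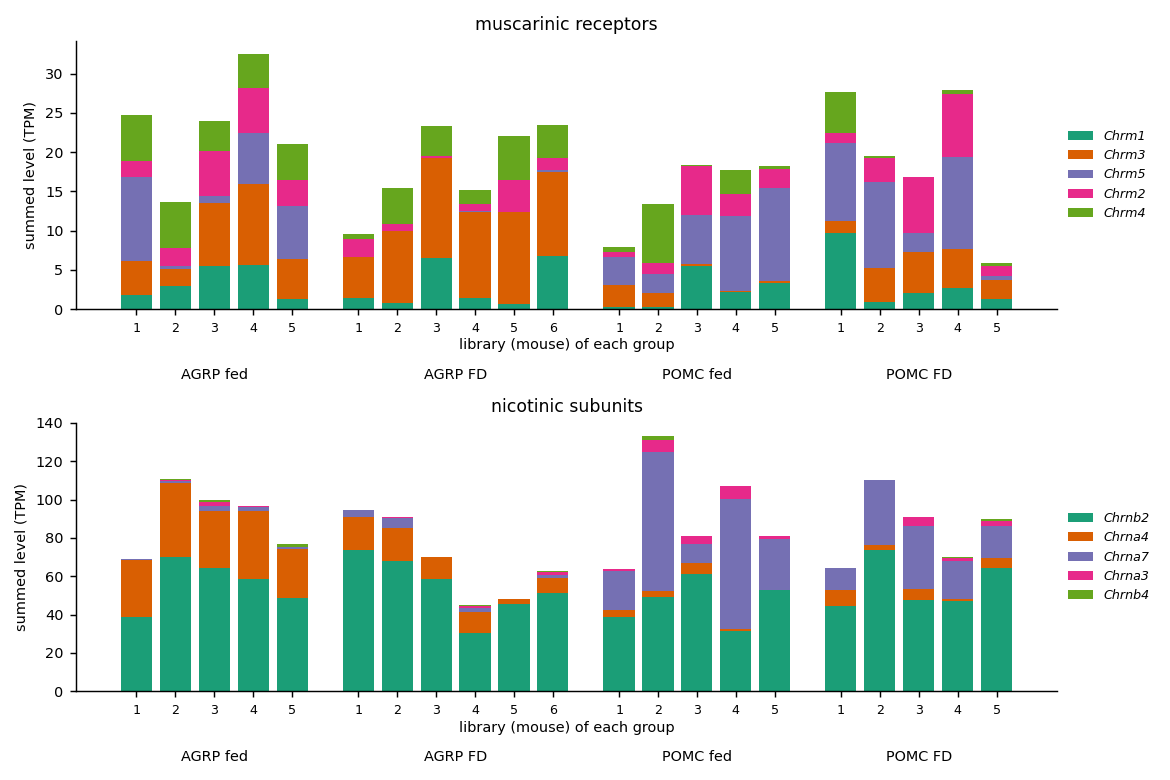
Stacked levels (TPM) of the muscarinic genes (top) and nicotinic subunit genes (bottom) in each library, with 1 bar per mouse. *Chrm5* is nearly missing from the muscarinic bars of the 6 AGRP libraries from FD mice, and *Chrna4* or *Chrna7* adds to *Chrnb2* according to cell type.

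Food deprivation in AGRP neurons was the first comparison. *Chrm5*, which encodes the Gq-coupled M5 receptor, was 10.7, 0.45, 0.951, 6.45 and 6.76 TPM in the 5 fed libraries. After deprivation it was 0, 0, 0, 0.194, 0 and 0.293 TPM in the 6 libraries, which is 6 reads in all against 232 reads in the fed libraries. The 4 libraries listed at 0 had a floor of 0.144 to 0.178 CPM, every FD library was below every fed library, and the groups did not overlap. In edgeR's quasi-likelihood test across all genes *Chrm5* fell, with a log2 fold change of -5.43 (SE 1.20, adjusted p = 0.0029, Benjamini-Hochberg). That fitted value depends on how counts near 0 are treated. With libraries of 3 reads or fewer set to 3 reads, the ratio of mean CPM was 13.3, from 2.26 CPM in fed to 0.171 CPM in FD mice. Without the FD library of replicate 4, which held 4 of the 6 reads, the fitted log2 fold change was -6.12. The adjusted p stayed under 0.05 in all 9 alternatives (1.62e-05 to 0.0149) and in all 11 fits that each left out 1 AGRP library (0.00244 to 0.00977).

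The size of the *Chrm5* difference was not the same across the spike-in sets. Libraries with the volume set by cell number had 6.45 and 6.76 TPM in fed mice and 0 TPM in FD mice. With 1 µl the 1 fed mouse had 10.7 TPM and the 1 FD mouse 0 TPM. The FD library of replicate 2, which could stand in either set, was at 0 TPM. With 10 µl the fed mice had 0.45 and 0.951 TPM (4 and 7 reads) and the FD mice 0.194 and 0.293 TPM (4 and 2 reads). The direction was the same in each set, but the 1 µl set held 1 library of each group. In the 10 µl set the fed libraries themselves were low, and the few reads there do not settle a direction. With the spike-in set as a block *Chrm5* kept its call, also with that library placed in the 1 µl set (adjusted p = 0.00718).

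Of the 10 receptor genes, *Chrm5* alone was called in this comparison, which is 1 of 10 where 10.3% of all 16513 genes tested were called. Members had a median log2 fold change of -0.25, against -0.023 over all genes. *Chrm5* and *Chrna4* were the 2 members whose TPM did not overlap between fed and FD mice, a property shared by 7.97% of all genes tested.

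*Chrna4*, the α4 subunit, was 29.7, 38.5, 29.8, 35.6 and 25.4 TPM in AGRP neurons from fed mice. In FD mice it was 17.2, 16.9, 11.7, 11.2, 2.48 and 7.59 TPM, so that the highest FD library lay below the lowest fed library. The log2 fold change of -1.26 (SE 0.61, 95% interval -2.51 to -0.013) nevertheless did not pass, with an adjusted p of 0.219. It passed with limma-voom (adjusted p = 0.0205) and with the 2 AGRP groups fitted alone (adjusted p = 0.0285), with log2 fold changes between -1.46 and -1.04 over the 9 alternatives. In none of the 11 fits that each left out 1 AGRP library did it pass (adjusted p 0.191 to 0.352). *Chrna4* was lower in FD than in fed AGRP neurons within each of the 3 spike-in sets, wherever the FD library of replicate 2 was placed.

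**Figure D3:**
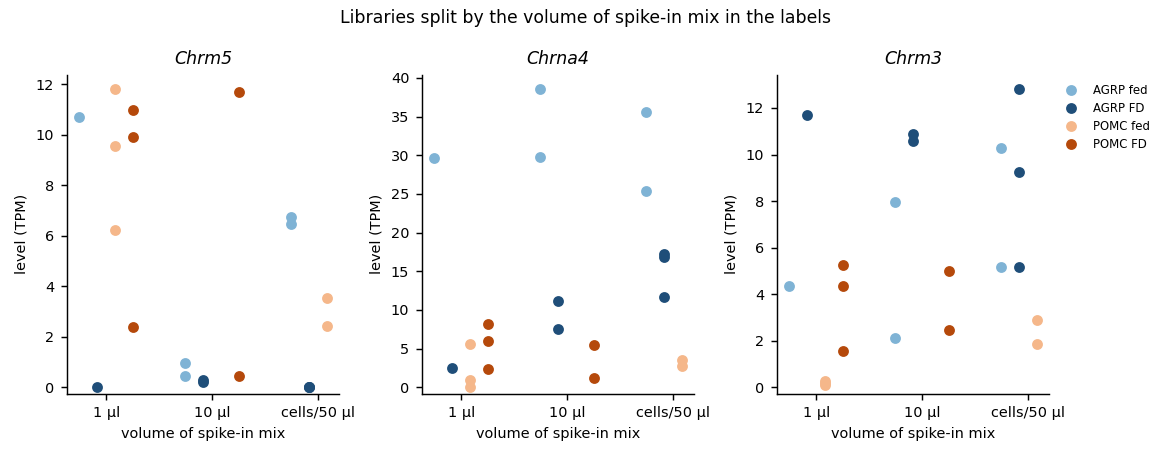
Levels (TPM) of *Chrm5*, *Chrna4* and *Chrm3* with the libraries split by the volume of spike-in mix, 1 point per mouse, with the AGRP FD library of replicate 2 among those scaled to cells. Fed AGRP libraries lie above FD AGRP libraries for *Chrm5* and *Chrna4* in each set, though for *Chrm5* the 10 µl AGRP libraries held 2 to 7 reads. The 3 lowest *Chrm3* points of fed POMC neurons belong to the 1 µl set, and no fed POMC library had 10 µl.

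*Chrm3*, the Gq-coupled M3 receptor, was 4.34, 2.12, 7.96, 10.3 and 5.15 TPM in fed and 5.18, 9.23, 12.8, 10.9, 11.7 and 10.6 TPM in FD AGRP neurons. The groups overlapped, and the log2 fold change of 1.03 (SE 0.68) did not pass (adjusted p = 0.408). *Chrnb2* was 38.9, 70.2, 64.5, 58.5 and 48.8 TPM in fed and 73.6, 68.2, 58.5, 30.4, 45.8 and 51.4 TPM in FD AGRP neurons, with overlap throughout. Its log2 fold change of 0.18 had the narrowest 95% interval of the members (-0.26 to 0.63) and an adjusted p of 0.692. *Chrm2*, a Gi/o-coupled receptor known as the M2 autoreceptor of cholinergic terminals, was 2.07 to 5.81 TPM in fed and 0.161 to 3.99 TPM in FD AGRP neurons, and its log2 fold change was -1.03 (SE 0.70, adjusted p = 0.427). *Chrm4*, the other Gi/o-coupled gene, was 3.77 to 5.87 TPM in fed and 0.673 to 5.66 TPM in FD AGRP neurons, and *Chrm1* was 1.28 to 5.64 and 0.698 to 6.8 TPM. The intervals of *Chrm4* (-2.59 to 2.11) and *Chrm1* (-1.64 to 1.61) on the log2 scale leave room for changes in either direction.

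Food deprivation in POMC neurons gave no call among the 10 receptor genes in edgeR, where 0.375% of all genes tested were called. limma-voom and DESeq2 also called 0 of 10, and 1 member had an unadjusted p under 0.05. That member was *Chrm3*, at 2.87, 1.86, 0.181, 0.08 and 0.279 TPM in fed and 1.54, 4.37, 5.25, 4.99 and 2.46 TPM in FD POMC neurons. The groups overlapped through the fed libraries of replicates 1 and 2, and the fitted log2 fold change was 1.55 (SE 0.72, adjusted p = 0.376). These 2 libraries had the volume set by cell number, whereas the 3 fed libraries at 0.08 to 0.279 TPM all had 1 µl, where the 3 FD libraries were 1.54 to 5.25 TPM. With the spike-in set as a block the log2 fold change was 2.58 and still did not pass (adjusted p = 0.153). No member had non-overlapping TPM, against 2.39% of all genes.

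*Chrm5* was 3.52, 2.43, 6.22, 9.55 and 11.8 TPM in fed and 9.9, 11, 2.39, 11.7 and 0.454 TPM in FD POMC neurons. The highest FD libraries matched the highest fed libraries, and the lowest FD library held 3 reads. The fitted log2 fold change was 0.011 (95% interval -2.11 to 2.14), a width that does not show the level to be the same. *Chrna7* was 20.5, 72.9, 10.1, 68 and 26.6 TPM in fed and 11.4, 34.2, 32.7, 19.9 and 16.6 TPM in FD POMC neurons. Fed libraries of replicates 2 and 4 lay above all the others, the rest overlapped, and the log2 fold change of -0.93 (SE 0.74) did not pass (adjusted p = 0.674). *Chrnb2* was 38.7, 49.3, 61.4, 31.6 and 52.9 TPM in fed and 44.6, 73.8, 47.6, 47.1 and 64.3 TPM in FD POMC neurons, with a log2 fold change of 0.13 (95% interval -0.33 to 0.59). When counts were scaled to ERCC transcripts and cell number, the median over all genes in this comparison moved to -1.11 (log2), and those of *Chrm3* (-0.012), *Chrna4* (-0.46) and *Chrnb2* (-1.01) turned negative without passing.

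The change with food deprivation was then compared between the cell types by the interaction. *Chrm5* was called, with a log2 difference of -5.44 between its change in AGRP and in POMC neurons (SE 1.55, adjusted p = 0.0302), 1 of 10 members where 6.71% of all genes tested were called. This call was lost with limma-voom (adjusted p = 0.0779) and ERCC scaling (0.128). It was also lost, at adjusted p values of 0.052 to 0.0645, without the AGRP fed library of replicate 1, the POMC fed library of replicate 1 or 2, or the POMC FD library of replicate 2 or 4, and was kept in the other 16 of 21 such fits. For *Chrna4* the interaction was -1.95 (SE 0.89, adjusted p = 0.213), and for *Chrna7* it was 1.84 (SE 1.06, adjusted p = 0.347).

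**Figure D4:**
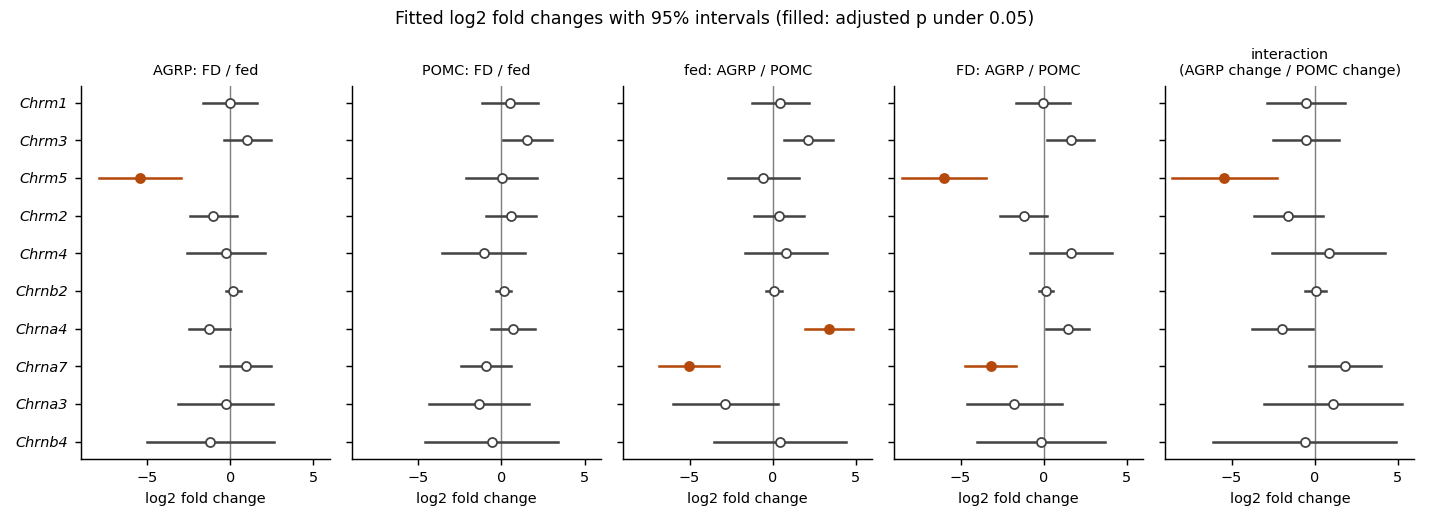
Fitted log2 fold change of each receptor gene with its 95% interval in the 4 comparisons of groups and the interaction; filled points have an adjusted p under 0.05. *Chrm5* lies near -5 to -6 in 3 panels, *Chrna4* and *Chrna7* lie on opposite sides of 0 between fed cell types, and *Chrnb2* stays near 0 with short intervals.

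Cell types from fed mice differed in 2 of the 10 receptor genes, where 7.57% of all genes tested were called. *Chrna4* was higher in AGRP neurons, at 25.4 to 38.5 TPM against 3.59, 2.8, 5.59, 0.985 and 0 TPM in POMC neurons. The log2 fold change was 3.40 (SE 0.70, adjusted p = 0.00132), which is 43.3 against 4.13 CPM with counts up to 3 set to 3. *Chrna7* was higher in POMC neurons, at 10.1 to 72.9 TPM against 0.483, 0.861, 2.39, 2.1 and 1.16 TPM in AGRP neurons. The log2 fold change of AGRP over POMC neurons was -5.03 (SE 0.88, adjusted p = 0.00019). The libraries of the cell types overlapped for neither gene, and these were the 2 members of that kind, where 9.05% of all genes did not overlap. Either call was kept in all 9 alternatives and in all 10 fits that each left out 1 fed library.

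*Chrna4* lies on chromosome 2 (181018380 to 181039305, minus strand) and *Chrna7* on chromosome 7 (63098692 to 63212526, minus strand) of mm10, and no other gene of the table overlaps either. *Chrm5* lies on chromosome 2 (112479171 to 112480769, minus strand) as a single annotated exon of 1599 bases, 1596 of them coding in GENCODE M21, so that reads from other exons of its transcript, if any, are not in its count. *Chrm4*, on chromosome 2 (91927249 to 91928688, plus strand), is likewise a single exon of 1440 bases. *Chrna3* and *Chrnb4* are neighbors on chromosome 9 (55011343 to 55026559 and 55028156 to 55048544, both minus strand). *Chrm1* overlaps Gm22820, *Chrm2* overlaps Mir490 and *Chrm3* overlaps Gm26861. These are overlaps of whole gene spans, and exons were not compared. Counting ignored strand, and the effect of the overlaps on the counts was not tested.

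*Chrm3* was higher in AGRP neurons from fed mice in mean level, 5.98 ± 3.21 against 1.06 ± 1.25 TPM (SD, n = 5 each), but the libraries overlapped. The log2 fold change of 2.16 (SE 0.73) fell short of the threshold (adjusted p = 0.0697), and passed with limma-voom (0.0182), DESeq2 (0.0149), the spike-in set as a block (0.0282, or 0.025 with the other placement) and without the POMC fed library of replicate 1 (0.013). *Chrna3* was 0 to 1.95 TPM in AGRP and 0.997 to 6.72 TPM in POMC neurons from fed mice, with a log2 fold change of -2.84 (SE 1.55, adjusted p = 0.335). *Chrm5* did not separate the fed cell types, with 0.45 to 10.7 TPM in AGRP and 2.43 to 11.8 TPM in POMC neurons and a log2 fold change of -0.56 (95% interval -2.69 to 1.57). For *Chrnb2* the log2 fold change was 0.091 (95% interval -0.37 to 0.55).

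In FD mice 2 of the 10 members differed between cell types, where 18.6% of all genes tested were called. *Chrm5* was lower in AGRP neurons, at 0 to 0.293 TPM against 0.454 to 11.7 TPM, and the nearest libraries were 2 reads in AGRP and 3 reads in POMC neurons. On the log2 scale the fold change was -6.01 (SE 1.23, adjusted p = 0.000574), and -6.69 without the AGRP FD library of replicate 4. The ratio of mean CPM with counts up to 3 set to 3 was 19.7. *Chrna7* was 3.89, 5.5, 0, 1.78, 0.072 and 1.91 TPM in AGRP and 11.4 to 34.2 TPM in POMC neurons, with a log2 fold change of -3.19 (SE 0.75, adjusted p = 0.00258). ERCC scaling, which moved the median of all genes to 1.10 here, ended that call (log2 fold change -2.40, adjusted p = 0.0965). *Chrm5* and *Chrna7* were also the 2 members without overlap, a property of 11.8% of all genes tested.

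*Chrna4*, which separated the fed cell types, was 8.13, 2.35, 5.98, 1.19 and 5.45 TPM in POMC neurons from FD mice and overlapped the AGRP libraries there. Between FD cell types its log2 fold change was 1.45 (SE 0.63, adjusted p = 0.114), and it passed with ERCC scaling alone (adjusted p = 0.0452). *Chrm3* had a log2 fold change of 1.64 (SE 0.69, adjusted p = 0.102), and passed with limma-voom (0.0314), DESeq2 (0.0485) and the FD groups fitted alone (0.025). *Chrm4* was 0.673 to 5.66 TPM in AGRP neurons from FD mice and at most 0.462 TPM in 4 of the 5 POMC libraries, with 5.13 TPM in replicate 1. Its log2 fold change of 1.65 (SE 1.21) had an adjusted p of 0.387, and without that library it was 3.95 (adjusted p = 0.0472).

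The β4 gene was low in every group, and the α3 gene in AGRP neurons. *Chrna3* (α3) was 0 to 1.95 TPM in AGRP neurons and 0 to 4.89 TPM in POMC neurons from FD mice, whereas each POMC library from fed mice held 21 to 189 reads of it. *Chrnb4* (β4) was 0 to 1.99 TPM over all 21 libraries. *Chrnb4* was listed at 0 in 4 of 6 and 2 of 5 AGRP libraries from FD and fed mice, and in 3 of 5 and 4 of 5 POMC libraries. Its intervals spanned several log2 units in each comparison, such as -5.00 to 2.60 for AGRP FD against fed, and so hold differences of either sign.

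Genes whose pattern over the 21 libraries was most like a called member were found by the Pearson correlation of log2(CPM + 0.5), among 8200 genes with a group mean over 20 CPM. *Chrna4* was most like *Thy1*, a surface glycoprotein of neurons (r = 0.881), and *Kcnt1*, a sodium-activated potassium channel (r = 0.868). *Chrna7* was most like D330045A20Rik (r = 0.927) and *Pon2*, a paraoxonase (r = 0.926). The 21 points share their 4 groups, and the correlations are descriptions. *Chrm5* was too low for this comparison.

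Other genes of acetylcholine signaling were taken from lists. Of the remaining 11 nicotinic subunit genes, 3 passed the filter and 0 were called by edgeR in any of the 5 comparisons, where 0.375 to 18.6% of all genes tested were called. *Chat*, which makes acetylcholine, had 0 reads in 20 of the 21 libraries and 43 reads (3.32 TPM) in the AGRP fed library of replicate 3. *Slc5a7*, which takes up choline, was at most 0.487 TPM. *Slc18a3*, the vesicular acetylcholine transporter, whose gene sits within the *Chat* locus, was present in every AGRP library. It was 1.11, 2.09, 9.36, 1.05 and 2.24 TPM in fed and 8.91, 8.49, 4.25, 6.14, 0.625 and 21.6 TPM in FD AGRP neurons, and had 1 read in all in each POMC group. Per total depth the reads of AGRP over POMC neurons had a ratio of 233 in fed mice (95% exact interval 41.3 to 9236) and 495 in FD mice (88.6 to 19587). These intervals pool libraries by group, take each read as independent, which amplified reads are not, and leave out the spread between mice. In fed mice 104 of the 192 AGRP reads came from replicate 3. *Slc18a3* was called higher in AGRP neurons in fed mice (adjusted p = 0.000365) and FD mice (adjusted p = 2.5e-05), and the calls were kept in all 9 alternatives and in every fit that left out 1 compared library. Of the 3 cholinergic neuron markers *Chat*, *Slc5a7* and *Slc18a3*, only *Slc18a3* was tested, so the others could not be called. *Slc18a3* itself passed the count filter through its AGRP libraries alone. *Chat* was at 0 in all 6 AGRP libraries from FD mice.

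Of the 3 tested genes of acetylcholine synthesis, transport and breakdown, 0 were called with deprivation in either cell type by edgeR, where 10.3% of all genes were called in AGRP and 0.375% in POMC neurons. *Ache*, the acetylcholine-degrading enzyme, was lower in AGRP than in POMC neurons from fed mice (log2 fold change -1.03, SE 0.31, adjusted p = 0.0387), a call lost without any of the AGRP fed libraries of replicates 1 to 4 or the POMC fed libraries of replicates 1 and 2 (adjusted p 0.0618 to 0.159), and with the replicate number as a block (0.072). *Prima1*, its membrane anchor, had 85 reads in AGRP and 0 reads in POMC neurons from FD mice (adjusted p = 0.0336), and lost its call with limma-voom (0.115), DESeq2 (0.051) and a block for the spike-in set (0.118) or the replicate number (0.0549), without the AGRP FD library of replicate 2 (0.0603) and without any single POMC FD library (0.0556 to 0.0645).

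Among 10 nicotinic receptor assembly factors and Ly6 modulators, all tested, 3 were called with deprivation in AGRP neurons and 0 in POMC neurons, against 10.3% and 0.375% of all genes, with medians of -0.13 and -0.13 on the log2 scale against -0.023 and -0.024 over all genes. *Tmem35*, which encodes the chaperone NACHO needed for α7 receptors to reach the surface, was 53, 51.3, 53.3, 60 and 37.9 TPM in fed and 15.1, 8.71, 2.1, 4.41, 21 and 21.9 TPM in FD AGRP neurons. It fell without overlap, a property of 7.97% of all genes tested, with a log2 fold change of -1.87 (SE 0.37, adjusted p = 0.000888). In POMC neurons it was 148 to 373 TPM in fed and 233 to 596 TPM in FD mice. Between fed cell types 1 of the 10 genes was called higher and 2 lower in AGRP neurons, against 7.57% of all genes. Between FD cell types 2 were called higher and 1 lower, against 18.6%, and in the interaction 1 higher and 1 lower, against 6.71%. Like *Chrna7*, *Tmem35* was lower in AGRP than in POMC neurons, by log2 fold changes of -2.67 in fed mice (SE 0.39, adjusted p = 1.41e-05) and -4.78 in FD mice (SE 0.40, adjusted p = 2.66e-10), and its interaction was -2.11 (SE 0.52, adjusted p = 0.0114). With ERCC scaling the fall, the difference in fed mice and the interaction did not pass (adjusted p 0.204, 0.0545 and 0.687).

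*Lypd6*, a Ly6 protein that modulates nicotinic receptors, was 45.7 to 91.8 TPM in AGRP neurons from fed mice, 8.22 to 34.9 TPM in those from FD mice and 0.86 to 19.2 TPM in POMC neurons. Like *Chrna4*, it was higher in AGRP than in POMC neurons of fed mice, with a log2 fold change of 3.15 (SE 0.55, adjusted p = 0.000178), and 3.95 without the POMC fed library of replicate 5. With deprivation it fell in AGRP neurons by 1.73 on the log2 scale (SE 0.49, adjusted p = 0.0204), a call lost without the fed library of replicate 2 (0.0535) or 5 (0.0579). *Ric3*, another assembly factor of α7 receptors, rose there by a log2 fold change of 0.62 (SE 0.18, adjusted p = 0.0264), a call lost without the fed library of replicate 1 (0.0859) or 3 (0.096) or the FD library of replicate 2 (0.0993) or 3 (0.0508), and with the AGRP groups fitted alone (0.0576). The other genes of this list called between cell types were *Nptn*, *Ly6e* and *Ly6h*. *Nptn* was lower in AGRP neurons of fed mice (log2 fold change -0.46, SE 0.14, adjusted p = 0.0333), a call kept in 3 of 10 fits without 1 fed library. In FD mice *Ly6e* (0.88, SE 0.18, adjusted p = 0.000653) and *Ly6h* (0.69, SE 0.21, adjusted p = 0.0208) were higher in AGRP neurons. The *Ly6h* interaction was 1.18 (SE 0.31, adjusted p = 0.0172).

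**Figure D5:**
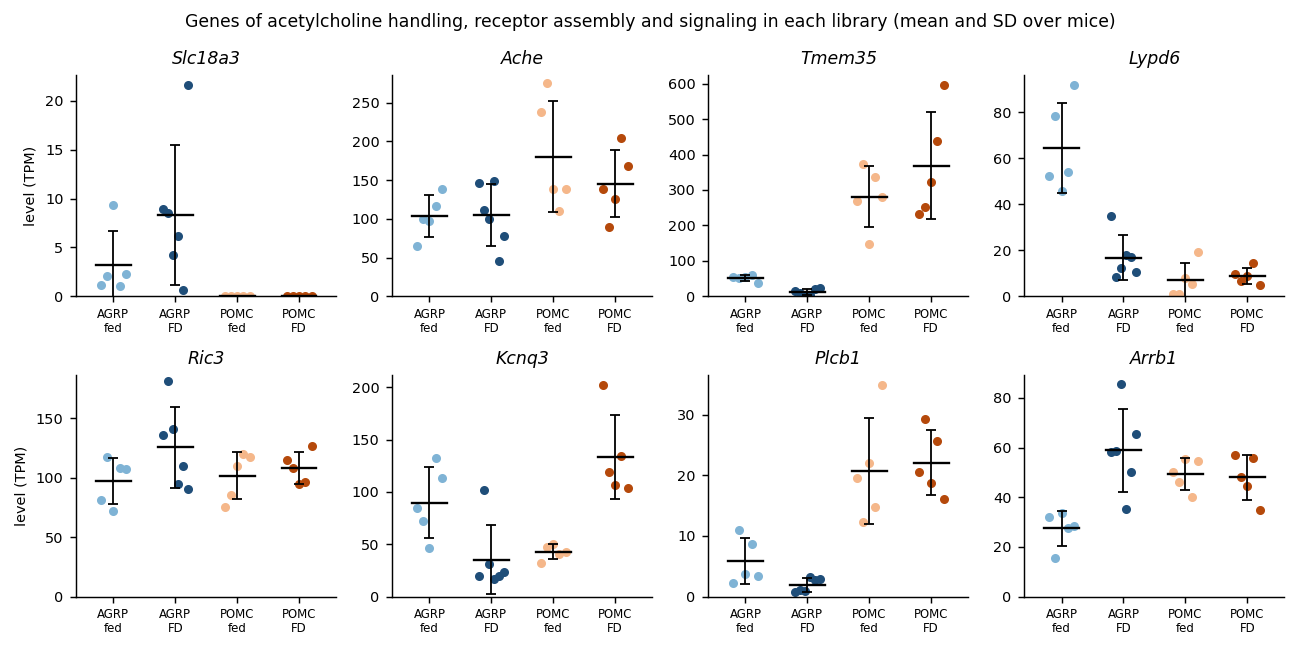
Levels (TPM, linear axes from 0) of 8 genes of acetylcholine handling, nicotinic receptor assembly and muscarinic signaling in each library, 1 point per mouse, with group mean and SD. *Slc18a3* is seen in AGRP libraries, *Tmem35* is highest in POMC libraries and lowest in AGRP libraries from FD mice, and 1 AGRP FD library (replicate 2) stands above the other 5 for *Kcnq3*.

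Of 10 genes downstream of the Gq-coupled receptors, 2 were called with deprivation in AGRP neurons, where 10.3% of all genes were, and 0 in POMC neurons, where 0.375% were. *Itpr1*, the IP3 receptor that releases stored calcium, rose in AGRP neurons by a log2 fold change of 0.73 (SE 0.19, adjusted p = 0.0125). Its log2 fold change in POMC neurons was of like size, 0.76 (SE 0.20), but did not pass (adjusted p = 0.0782). The *Itpr1* interaction was -0.027 (SE 0.27, adjusted p = 0.977). *Plcb1*, a phospholipase C that Gq activates, fell in AGRP neurons by 1.34 on the log2 scale (SE 0.42, adjusted p = 0.039). The *Plcb1* call was lost with limma-voom (0.215), with the AGRP groups alone (0.148) and without the fed library of replicate 2 or 4 or the FD library of replicate 1, 2 or 3 (0.0716 to 0.2). Between cell types 1 of the 10 genes was called higher and 2 lower in AGRP neurons. This held in fed mice, where 7.57% of all genes were called, and in FD mice, where 18.6% were. *Plcb1* was lower in AGRP than in POMC neurons in fed (-1.96, SE 0.45, adjusted p = 0.00407) and FD mice (-3.29, SE 0.44, adjusted p = 1.73e-06), and its paralog *Plcb4* higher in fed (1.28, SE 0.28, adjusted p = 0.00246) and FD mice (1.35, SE 0.27, adjusted p = 0.000435), all on the log2 scale. *Plcb2* was also lower, in fed (-6.54, SE 1.75, adjusted p = 0.0165) and FD mice (-5.64, SE 1.66, adjusted p = 0.015). AGRP libraries held 0 to 3 reads of it, and the fed POMC library of replicate 4 held 596. Both *Plcb2* calls were lost with limma-voom (0.28 and 0.0945).

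*Kcnq3*, a subunit of the M-current channels that Gq-coupled muscarinic receptors close, was 84.9, 72.2, 46.2, 132 and 113 TPM in fed and 19.3, 102, 30.7, 17.2, 19.6 and 23.3 TPM in FD AGRP neurons. In POMC neurons it was 31.9 to 50.5 TPM in fed and 104 to 202 TPM in FD mice, with no overlap, as for 2.39% of all genes tested. The log2 fold change there of 1.53 (SE 0.37) fell just short of the threshold (adjusted p = 0.0556). The interaction was called, with a log2 difference of -2.58 (SE 0.51, adjusted p = 0.00152), and was -3.33 without the AGRP FD library of replicate 2. The log2 fold change within AGRP neurons, -1.05 (SE 0.35, adjusted p = 0.049), was -1.80 (adjusted p = 4.93e-06) without that library, and lost its call without any other AGRP library except the fed library of replicate 3 (0.0643 to 0.151). It was also lost with DESeq2 (0.083) and with the AGRP groups alone (0.106).

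Of 9 genes downstream of Gi/o-coupled receptors, 1 was called with deprivation in AGRP neurons, where 10.3% of all genes were, and 0 in POMC neurons, where 0.375% were. It was *Gnai1*, which fell by 0.49 on the log2 scale (SE 0.14, adjusted p = 0.0243). Its adjusted p stayed under 0.05 in 6 of 9 alternatives and 8 of 11 fits without 1 library. Between fed cell types 4 of the 9 genes were called, where 7.57% of all genes were, and 5 between FD cell types, where 18.6% were. Among the GIRK channel subunits, *Kcnj6* was called in neither comparison of cell types. *Kcnj9* was higher in AGRP neurons from FD mice (log2 fold change 0.85, SE 0.24, adjusted p = 0.0128), a call not followed over the alternatives. *Kcnj3* was lower in AGRP neurons, at -1.34 in fed (SE 0.33, adjusted p = 0.00872) and -2.61 in FD mice (SE 0.33, adjusted p = 4.47e-07) on the log2 scale, and *Kcnj5* higher, at 1.75 in fed (SE 0.36, adjusted p = 0.00138) and 3.25 in FD mice (SE 0.38, adjusted p = 1.37e-07). Of 7 receptor kinases and arrestins, which desensitize muscarinic receptors, *Arrb1* (β-arrestin 1) alone was called with deprivation in AGRP neurons, against 10.3% of all genes. It rose from 15.5 to 33.7 TPM in fed to 35.2 to 85.8 TPM in FD mice (log2 fold change 1.35, SE 0.20, adjusted p = 3.91e-05), with an interaction of 1.50 (SE 0.29, adjusted p = 0.00119). With ERCC scaling, of the pathway calls above that were followed, the ones kept were all between cell types: *Slc18a3* and *Lypd6* in fed mice, and *Slc18a3*, *Prima1*, *Tmem35*, *Plcb1*, *Plcb2*, *Plcb4* and *Kcnj5* in FD mice.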

How the data were processed

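The authors trimmed reads with cutadapt 1.7.1, removed abundant sequences with Bowtie2 2.1.0, mapped the rest to mm10 with STAR 2.4.0i and counted reads on Gencode genes with HTSeq 0.6.1p1, without strand. The deposited counts are raw, and the authors made the deposited TPM from them by exon length. Here edgeR 4.0.16 in R 4.3.3 was fitted to the counts of all 21 libraries with 4 groups, after a filter of CPM over 1 in at least 3 libraries and TMM scaling, with two-sided quasi-likelihood tests and Benjamini-Hochberg adjustment over 16513 genes. A gene was called at an adjusted p under 0.05, and SE is the log2 fold change over the root of F. TPM served for levels. Groups came from the labels, 1 mouse per library. Alternatives were limma-voom (limma 3.58.1), DESeq2 1.42.0, RLE scaling, no filter, only the 2 groups compared, a block for the replicate number or the spike-in set, ERCC scaling and each library left out. A spike-in set block with 1 library placed by its label volume alone was added after seeing the data. Scripts were tested on simulated data. Every receptor gene is named, with TPM in every library for those with a group mean over 5 TPM or a call, and other genes only where called, at most 4 per list and comparison, besides cell type markers, *Kcnj6* and *Kcnj9*. The receptor genes and lists were chosen with earlier results of these data known. HTSeq summary entries and 92 ERCC entries were left out of the library sizes. No base-level sequence was analysed here.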

Additional observations from a re-analysis of the deposited data

Results flagged for a closer look

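Levels of each receptor gene were searched for a library far from the others of its group, in 40 groups of 5 or 6 libraries. The search found 3, near the nominal rate of about 1 in 20 groups. In POMC neurons from FD mice the library of replicate 1, from 44 cells, stood apart for *Chrm1*, at 9.73 TPM with the nearest library at 2.65 TPM, and for *Chrm4*, at 5.13 TPM with the nearest at 0.462 TPM. In POMC neurons from fed mice replicate 2 had *Chrnb4* at 1.99 TPM, while the other 4 libraries were at 0 and so gave no spread to set it against.

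*Chrm5* changed with food deprivation by different amounts in the 2 cell types, with an interaction of -5.44 on the log2 scale (adjusted p = 0.0302, edgeR). All 6 AGRP libraries from FD mice held 0 to 4 reads, while POMC libraries held 37 to 109 reads in fed and 3 to 109 reads in FD mice.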

How the results depend on the processing

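Calls changed most with ERCC scaling, which moved the median over all genes tested to -1.11 (log2) in the POMC comparison, 1.10 between FD cell types and 1.04 in the interaction. It kept 4 of the 6 receptor calls and 9 of the 40 calls of pathway genes that were followed (at most 4 per list and comparison), where each of the other alternatives kept at least 5 receptor calls (all those it could test, with the exception of limma-voom) and, with a value for 33 to 40 pathway calls, lost at most 5. For AGRP FD against fed, limma-voom and the compared groups alone called 2 receptor genes in place of 1, *Chrm5* and *Chrna4*. For the interaction, limma-voom and ERCC scaling called 0, and fits that each left out 1 library called 0 or 1. Why these calls moved was not tested.

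Over all 50 fold changes of the 10 receptor genes, 23 changed sign in at least 1 fit, with no adjusted p under 0.05 on the turned side, and none of the 6 called ones did. The text gives 27 of the 50. Of these, with ERCC scaling the log2 fold change turned to 0.48 for *Chrm1* in AGRP neurons, to -0.012 for *Chrm3*, -0.82 for *Chrm5*, -0.46 for *Chrna4* and -1.01 for *Chrnb2* in POMC neurons, to 0.21 for *Chrm5* and -0.00047 for *Chrnb2* between fed cell types, and to 0.23 for the signaling gene *Gnaz* between FD cell types (from -0.89). With the spike-in set as a block it turned to 0.078 for *Chrm1* in AGRP and -0.14 for *Chrm5* in POMC neurons, and to 0.0069 and -0.11 with the AGRP FD library of replicate 2 placed in the 1 µl set, an alternative chosen after seeing the data. For the latter gene limma-voom gave -0.44. Leaving out 1 library gave -0.42 to 0.23 for *Chrm1* in AGRP neurons, -0.23 to 0.31 for *Chrm5* in POMC neurons and -0.034 to 0.21 for *Chrnb2* between fed cell types.

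Replicate numbers do not mark shared animals. Deviations of same-numbered libraries had correlations of -0.207 to 0.127 (median -0.0215), and those of other numbers a median of 0.005. With the replicate block the count of receptor genes called was 1 for AGRP FD against fed, 0 for POMC, 2 and 2 between cell types and 1 for the interaction, as without it, and *Chrm4* in AGRP neurons (0.007) and *Chrm5* in POMC neurons (-0.09) changed sign near 0.

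Depth limits values near 0, since 3 reads lie at 0.0797 to 0.305 CPM.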
